A study of Mus musculus with 9 samples.

Results

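The MYC and MAX dimer network is a family of basic helix-loop-helix leucine zipper proteins, and 8 of its genes were followed here: Myc, Mycn, Mlx, Mnt, Mxd1, Mxd3, Mxd4 and Mxi1. The members were chosen by name, as the rows of the count matrix that carry these symbols, and they are 8 of the 24505 genes in the matrix. The measurements are mRNA read counts from 9 libraries of germ cells sorted from mouse testes, with 3 in each group. The groups are In/B spermatogonia (intermediate and type B, the last mitotic spermatogonia) taken at postnatal day (P) 17, and preleptotene (PL) spermatocytes taken at P19, which were either RA-sufficient or RA-deficient. RA is retinoic acid, and the comparisons ask how mRNA levels changed as spermatogonia became PL spermatocytes with RA made in the testis or without it. Cells came from the Uchl1-eGfp line, in which the Uchl1 promoter drives the green reporter used for sorting, with strong signal in spermatogonia and weak signal in PL cells. The line was originally on C57BL/6 and had been outcrossed to outbred CD-1 mice. Testes of several pups of a litter were pooled for a preparation.

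Animals of all groups received WIN18,446, an inhibitor of RA synthesis, from P1 to P11 by the sample records, at 100 µg per g of weight, and then 10 µl of RA at 10 µg per µl as 1 subcutaneous injection at P11. In RA-sufficient animals the inhibitor was then stopped, and in RA-deficient animals it was continued until the cells were taken. The labels give the In/B cells only as coming from synchronized P17 testes. Library totals ran from 12612959 to 27042274 counts, so that 3 counts correspond to between 0.111 and 0.238 CPM, the count scaled to the library total. The RA-deficient libraries had fewer genes with any count, between 14769 and 15327 against 16758 to 18434 in the other groups. RA-deficient replicate 3 stood apart from the rest of its group, with a chi-square per degree of freedom over genes of 107.7 against replicate 1 and 107.1 against replicate 2, where replicates 1 and 2 gave 19.76. All 8 spermatocyte markers (Sycp1, Sycp2, Sycp3, Dmc1, Spo11, Prdm9, Meiob and Hormad1) were called higher in both PL groups than in In/B, and their summed level was 825 to 1412 CPM in In/B, 3919 to 5729 CPM in RA-sufficient PL and 4584 to 6436 CPM in RA-deficient PL. Markers of other cell types moved as well. The 10 Sertoli markers in the matrix summed to 70.6 to 374 CPM in In/B, 3020 to 3971 CPM in RA-sufficient PL and 303 to 531 CPM in RA-deficient PL. In bulk libraries of this kind, fewer cells of a type and less RNA per cell cannot be told apart.

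MYC and MYCN are transcription factors that pair with MAX, bind the E-box CACGTG and activate genes for growth, ribosome production and division. MXD1, MXI1, MXD3, MXD4 and MNT also pair with MAX at E-boxes but recruit the SIN3 corepressor with its histone deacetylases, and they are commonly called the antagonists of MYC. MXD1 and MXI1 are known for rising when cells leave the cycle and differentiate, MXD3 for expression in dividing cells, and MNT for being present in most cells. MLX is the partner of MXD1, MXD4 and MNT in a parallel branch and of the MONDO proteins MLXIP and MLXIPL, which respond to glucose metabolites.

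The E-box was looked for in the RefSeq promoter windows of the members (GRCm38.p6, 250 bases before to 50 after each start, both strands, the motif reading the same on either). It occurred in 2349 of 32851 windows (7.15%), and in 3 of 9 windows of the 7 members that have one. Those of Mxd4 (chr5:34187912-34187941, minus strand), Mnt (chr11:74830789-74830818, plus strand) and Mlx (chr11:101087238-101087267, plus strand) are printed 5′ to 3′ because they hold the letters this family binds, in capitals. The window of Mycn (chr12:12941993-12942022, minus strand) is printed for a pair of TTTGGCGC sequences, the form of E2F site found at cell cycle genes, also in capitals. The motifs do not overlap each other, and both searches were chosen after the levels were known.
Mxd4: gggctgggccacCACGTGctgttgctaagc
Mnt: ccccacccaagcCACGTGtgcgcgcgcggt
Mlx: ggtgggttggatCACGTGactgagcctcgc
Mycn: gctTTTGGCGCgaaaggcTTTGGCGCctcc
The E-box began 219 bases before the start in Mxd4, 123 in Mnt and 40 in Mlx. The E2F sequences of Mycn began 183 and 168 bases before it. TTTGGCGC, searched on both strands, occurred in 169 of the 32851 windows (0.514%) and at least 2 times in 2 of them (0.0061%). A match of letters is a description and was not tested for binding, and the RefSeq table gave no window for Myc.

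In every comparison a gene was called at an absolute log2 fold change above 1 with an adjusted p below 0.05, from the quasi-likelihood test of edgeR, adjusted by Benjamini-Hochberg over all genes tested. SE is the standard error of a log2 fold change. From In/B to RA-sufficient PL, 4 of the 7 members tested were called, Mxd1 and Mxi1 higher and Mycn and Mxd3 lower, where 45.4% of 15001 genes were called. From In/B to RA-deficient PL, 3 of 8 were called, Mnt higher and Mycn and Mlx lower, where 23.2% of 14877 genes were called. Between the PL groups, 3 of 8 were called, Mxd3 higher and Mxd1 and Mxi1 lower in RA-deficient PL, where 15.5% of 15352 genes were called. With RA-deficient replicate 3 left out, 3 members were called against In/B, where 3995 genes of all tested were called in place of 3446, and 3 between the PL groups, where 4484 were called in place of 2383. Only 1 member was called in the last comparison without RA-sufficient replicate 2, RA-sufficient replicate 3 or RA-deficient replicate 1. The 3 In/B libraries serve in the first and second comparisons and the third uses the PL libraries of both, so the comparisons are not independent of each other. By the adjusted p alone, 6, 4 and 4 members passed, where 65.0%, 36.7% and 23.6% of all genes did. Libraries of the groups did not overlap for 6 members between RA-sufficient PL and In/B (71.5% of all genes), for 4 between RA-deficient PL and In/B (54.6%) and for 6 between the PL groups (47.4%).

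**Figure D1:**
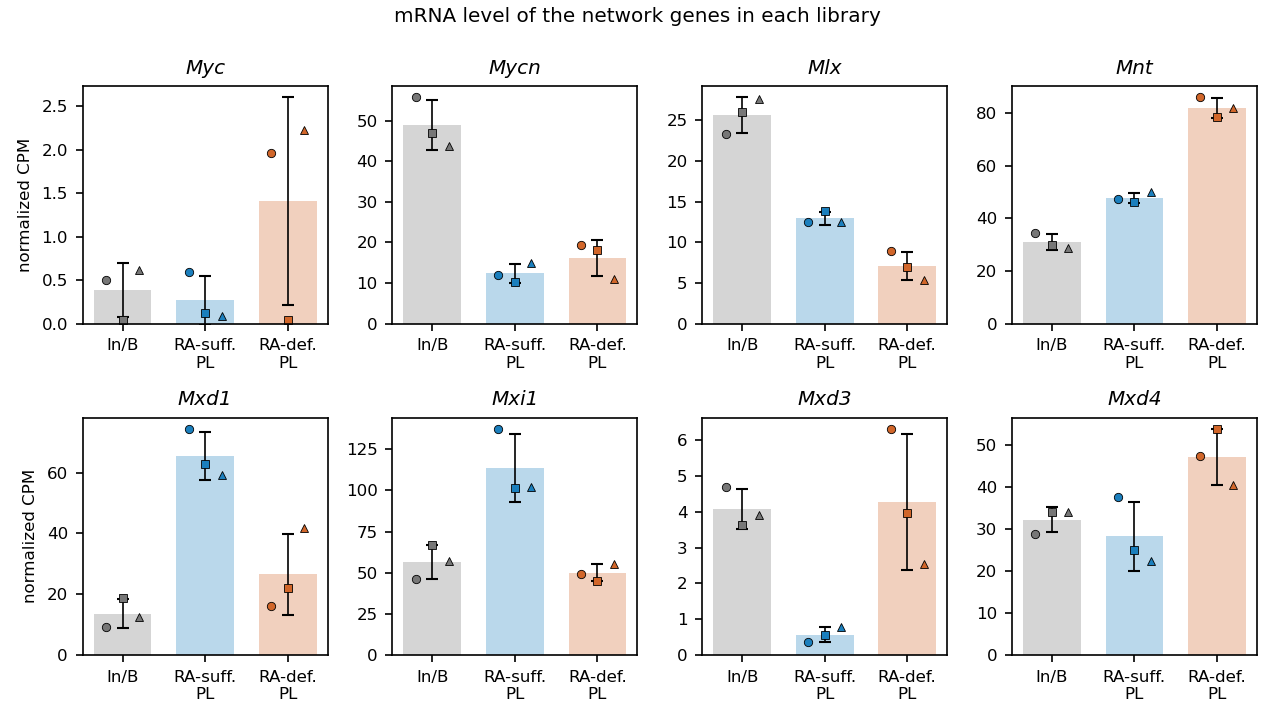
Normalized mRNA level (CPM after TMM scaling, vertical axes starting at 0 and scaled per gene) of the 8 members in 3 In/B, 3 RA-sufficient PL and 3 RA-deficient PL libraries; bars are means, error bars are SD (n = 3, cut off at 0), and circles, squares and triangles are replicates 1, 2 and 3. Mycn was highest in In/B, Mxd1 and Mxi1 in RA-sufficient PL and Mnt in RA-deficient PL.

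Mycn (chromosome 12, 12942902 to 12948720 in mm9) encodes the MYC protein whose mRNA was far above that of Myc in all groups. Its level was 55.7, 47.1 and 43.8 CPM in the In/B libraries, 12.0, 10.2 and 14.9 CPM in RA-sufficient PL and 19.2, 18.03 and 11.02 CPM in RA-deficient PL. All In/B libraries lay above all PL libraries, and the PL groups overlapped. Mean levels were 48.9 ± 6.17, 12.4 ± 2.36 and 16.1 ± 4.44 CPM (SD, n = 3 for this and the other means). Mycn fell by 1.92 on the log2 scale in RA-sufficient PL (SE 0.20, adjusted p = 8.29e-05, edgeR) and by 1.44 in RA-deficient PL (SE 0.26, adjusted p = 0.00368, edgeR), that is 3.80-fold and 2.70-fold. Leaving out any 1 library kept both calls, with log2 fold changes between -2.08 and -1.81 for the first and between -1.60 and -1.22 for the second. Between the PL groups the log2 difference was 0.38 with a standard error of 0.32 (adjusted p = 0.424, edgeR), and no call was made. The summed level of 6 markers of differentiating spermatogonia, listed below, was also highest in In/B, at 3640 to 5326 CPM. It was 750 to 848 CPM in RA-sufficient and 1306 to 3234 CPM in RA-deficient PL. Within groups, replicate 3 had the lowest sum each time, with the lowest Mycn in In/B and RA-deficient PL and the highest in RA-sufficient PL. The part of spermatogonia in the level of Mycn was not tested.

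Myc (chromosome 15, 61816946 to 61821929), which encodes c-MYC, was near the limit of counting. The libraries held 9, 1 and 11 counts in In/B, 8, 2 and 2 counts in RA-sufficient PL and 49, 1 and 51 counts in RA-deficient PL. A level at or below 3 counts was found in 1 In/B library, 2 RA-sufficient libraries and 1 RA-deficient library, so the groups overlapped throughout. Its highest level, 2.23 CPM in RA-deficient replicate 3, was below the lowest Mycn level. Myc was not tested for RA-sufficient PL against In/B because it did not pass the filter on low counts. The other comparisons gave log2 fold changes of 2.01 against In/B (SE 1.45, adjusted p = 0.327, edgeR) and 2.38 against RA-sufficient PL (SE 1.47, adjusted p = 0.277, edgeR), both for RA-deficient PL. A difference in Myc was not detectable at this depth and spread.

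Mlx (chromosome 11, 100948591 to 100953521), the gene of the alternative dimer partner, followed a stepwise order. Its level was 23.3, 26.0 and 27.6 CPM in In/B, 12.4, 13.9 and 12.5 CPM in RA-sufficient PL and 8.88, 6.89 and 5.38 CPM in RA-deficient PL. No library of one group overlapped with those of another. Mean levels were 25.6 ± 2.19, 12.9 ± 0.810 and 7.05 ± 1.76 CPM. The fall in RA-deficient PL was called, with a log2 fold change of -1.69 (SE 0.27, adjusted p = 0.00229, edgeR), and was called without any 1 library. In RA-sufficient PL the log2 fold change was -0.93 (SE 0.19, adjusted p = 0.00229, edgeR), past the adjusted p but short of the size a call needs. Between the PL groups it was -0.88 (SE 0.31, adjusted p = 0.0795, edgeR), and it passed both limits, at -1.06 with adjusted p = 0.0480, only where libraries were scaled by their totals alone. The exons of Mlx overlap those of Psmc3ip on the opposite strand over 385 of 1999 bases, and the use of strand in counting is not stated. Psmc3ip, a gene of meiotic recombination, had means of 32.3, 35.2 and 25.9 CPM in the 3 groups.

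Mnt (chromosome 11, 74644422 to 74659227) was the antagonist gene that was highest in RA-deficient PL. Its level was 34.3, 29.8 and 28.6 CPM in In/B, 47.2, 46.4 and 49.9 CPM in RA-sufficient PL and 86.1, 78.5 and 81.8 CPM in RA-deficient PL. The groups were separate in all pairs, and the spread within each was small. Mean levels were 30.9 ± 3.02, 47.9 ± 1.85 and 82.1 ± 3.81 CPM. Mnt rose by a log2 fold change of 1.57 in RA-deficient PL against In/B (SE 0.16, adjusted p = 0.000257, edgeR), a call that held without any 1 library. The differences of 0.68 in RA-sufficient PL against In/B (SE 0.15, adjusted p = 0.00379, edgeR) and 0.77 between the PL groups (SE 0.13, adjusted p = 0.00824, edgeR) passed the adjusted p and were smaller than 2-fold. The markers of peritubular and stromal cells also had their highest sums in RA-deficient PL, at 133 to 139 CPM against 73.4 to 92.0 CPM in In/B and 82.8 to 92.8 CPM in RA-sufficient PL, with none of the 7 genes at 0. The single markers did not all follow the sum: between the PL groups 4 were positive and 3 negative with 1 called. Against In/B, 5 were called higher and 1 lower in RA-sufficient PL, and 3 were called higher in RA-deficient PL. Their part in the levels of Mnt and Mxd4 was not tested.

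Mxd4 (chromosome 5, 34516536 to 34530369) was also highest in RA-deficient PL, with smaller differences. Its level was 28.7, 33.9 and 33.9 CPM in In/B, 37.6, 24.9 and 22.3 CPM in RA-sufficient PL and 47.2, 53.7 and 40.4 CPM in RA-deficient PL. The RA-deficient libraries lay above all others, and the In/B and RA-sufficient libraries overlapped. Mean levels were 32.2 ± 3.01, 28.2 ± 8.21 and 47.1 ± 6.67 CPM. No comparison was called. The log2 fold change was 0.72 in RA-deficient PL against In/B (SE 0.18, adjusted p = 0.0171, edgeR) and 0.72 between the PL groups (SE 0.27, adjusted p = 0.0935, edgeR). Without RA-sufficient replicate 1 the latter was a call, at 1.02 (adjusted p = 0.0363, edgeR). For RA-sufficient PL against In/B it was -0.13 (SE 0.22, adjusted p = 0.623, edgeR).

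Mxd1 (chromosome 6, 86597038 to 86619153), a gene known for induction during terminal differentiation, was highest in RA-sufficient PL. Its level was 9.34, 18.8 and 12.5 CPM in In/B, 74.4, 62.7 and 59.2 CPM in RA-sufficient PL and 16.0, 22.0 and 41.6 CPM in RA-deficient PL. The RA-sufficient libraries stood above all others, and RA-deficient replicate 3 was the highest of the rest. Mean levels were 13.5 ± 4.79, 65.4 ± 7.98 and 26.6 ± 13.4 CPM. Mxd1 rose by a log2 fold change of 2.33 in RA-sufficient PL against In/B (SE 0.25, adjusted p = 9.12e-05, edgeR), or 5.02-fold, and did so without any 1 library. In RA-deficient PL against In/B the log2 fold change was 1.14 (SE 0.40, adjusted p = 0.0574, edgeR), which was no call. It ran from 0.67 without RA-deficient replicate 3 to 1.41 when other libraries were left out, and it was a call at 1.37 without RA-deficient replicate 1. Mxd1 was lower in RA-deficient than in RA-sufficient PL by a log2 fold change of -1.31 (SE 0.35, adjusted p = 0.0354, edgeR). This call was kept in 1 of 6 fits that each left out a library, the one without RA-deficient replicate 3, where the value was -1.77 (adjusted p = 0.000838), and in the other fits the adjusted p rose to as much as 0.111.

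Mxi1 (chromosome 19, 53384996 to 53450300) was likewise highest in RA-sufficient PL, and it was the antagonist gene with the highest level there. Its level was 46.0, 66.6 and 57.1 CPM in In/B, 137, 102 and 102 CPM in RA-sufficient PL and 49.1, 45.1 and 55.5 CPM in RA-deficient PL. The In/B and RA-deficient libraries overlapped, and all were below the RA-sufficient ones. Mean levels were 56.6 ± 10.3, 114 ± 20.6 and 49.9 ± 5.22 CPM. The rise in RA-sufficient PL against In/B was just past 2-fold, at a log2 fold change of 1.06 (SE 0.18, adjusted p = 0.000881, edgeR). It fell below that size, to 0.93 without In/B replicate 1 and to 0.90 without RA-sufficient replicate 1. The difference between the PL groups was called at -1.20 (SE 0.19, adjusted p = 0.00598, edgeR) and in all 6 fits that each left out a library. Against In/B, RA-deficient PL gave -0.01 (SE 0.18, adjusted p = 0.971, edgeR), with a sign that turned in several alternative fits. The exons of Mxi1 overlap those of Gm10197 on the opposite strand over 194 of 5619 bases, and the level of Gm10197 was not examined.

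Mxd1 and Mxi1 were highest in the same group as the markers of Sertoli cells, the somatic cells that enclose germ cells in the tubule. All 10 of these markers in the matrix (Sox9, Amh, Wt1, Clu, Cldn11, Dhh, Fshr, Inha, Cst12 and Gata4) were called higher in RA-sufficient PL than in In/B and lower in RA-deficient than in RA-sufficient PL, and 1 was called higher in RA-deficient PL than in In/B. Their sums were 70.6, 374 and 239 CPM in the In/B libraries and 303, 313 and 531 CPM in the RA-deficient libraries. The library with the highest sum was also the one with the highest Mxd1 and Mxi1 in In/B (replicate 2), in RA-deficient PL (replicate 3) and in RA-sufficient PL (replicate 1). Fshr was at 0 in at least 1 RA-deficient library, and every marker was detected in RA-sufficient PL. Leydig markers summed to 9.56 to 15.9, 32.5 to 38.6 and 12.0 to 24.0 CPM, and macrophage and blood markers to 3.63 to 4.30, 4.71 to 10.9 and 3.49 to 8.70 CPM, in In/B, RA-sufficient PL and RA-deficient PL. The part of these cells in the levels of Mxd1 and Mxi1 was not tested.

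**Figure D2:**
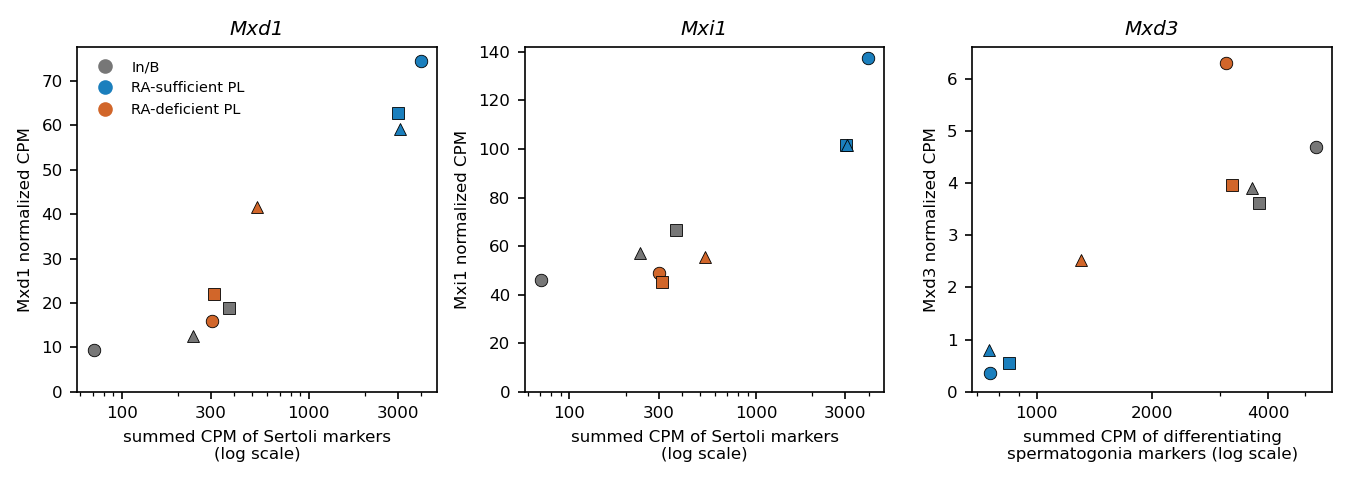
Level of Mxd1, Mxi1 and Mxd3 (normalized CPM, vertical axes from 0) against the summed CPM of 10 Sertoli markers or 6 markers of differentiating spermatogonia (horizontal log axes) in the 9 libraries; colours are groups, and circles, squares and triangles are replicates 1, 2 and 3. The RA-sufficient libraries sit at 3020 to 3971 CPM of Sertoli markers with the highest Mxd1 and Mxi1, and at 750 to 848 CPM of spermatogonial markers with the lowest Mxd3.

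Mxd3 (chromosome 13, 55426529 to 55431119), the MXD gene associated with dividing cells, was the lowest of the antagonist genes and was nearly lost from RA-sufficient PL. Its level was 4.70, 3.63 and 3.90 CPM in In/B, 0.368, 0.546 and 0.794 CPM in RA-sufficient PL and 6.32, 3.96 and 2.54 CPM in RA-deficient PL. The RA-sufficient libraries, with 5, 9 and 18 counts, were below all others, and the In/B and RA-deficient libraries overlapped. Mean levels were 4.08 ± 0.555, 0.569 ± 0.214 and 4.27 ± 1.91 CPM. Mxd3 fell by 2.74 on the log2 scale in RA-sufficient PL against In/B (SE 0.43, adjusted p = 0.000656, edgeR), or 6.68-fold, and this call was made without any 1 library. It was higher in RA-deficient than in RA-sufficient PL by a log2 fold change of 2.89 (SE 0.65, adjusted p = 0.0201, edgeR). That call was kept in 2 of 6 fits that each left out a library, and the adjusted p was at most 0.0853 in the others, without any RA-sufficient replicate or without RA-deficient replicate 1, with log2 fold changes between 2.498 and 3.18. Against In/B, RA-deficient PL gave 0.23 (SE 0.49, adjusted p = 0.752, edgeR).

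The summed level of the markers of differentiating spermatogonia (Kit, Dmrt1, Sohlh1, Sohlh2, Uchl1 and Dmrtb1) was, like Mxd3, lowest in RA-sufficient PL. These markers summed to 3640 to 5326 CPM in In/B, 750 to 848 CPM in RA-sufficient PL and 1306 to 3234 CPM in RA-deficient PL, with none at 0. Their sum was also lower in RA-deficient PL than in In/B, where Mxd3 overlapped. Single markers went both ways there, with 1 called higher and 1 lower. Sohlh2 was at 103 to 203 CPM in RA-deficient PL against 79.4 to 79.5 CPM in In/B. Uchl1 was the largest part of the In/B sum, at 2352 to 3657 CPM. Within groups the lowest sum went with the lowest Mxd3 in RA-deficient PL (replicate 3) and with the highest Mxd3 in RA-sufficient PL (replicate 3). Of the 6, 5 were called lower in RA-sufficient PL than in In/B and 5 higher in RA-deficient than in RA-sufficient PL. Dmrtb1 did not follow the sum, at 70.7 to 162 CPM in RA-sufficient and 65.0 to 93.5 CPM in RA-deficient PL. The lowest Kit level in RA-deficient PL, 20.3 CPM, lay within the RA-sufficient range of 20.2 to 41.0 CPM. Uchl1 drives the reporter on which the cells were sorted. The part of spermatogonia in the level of Mxd3 was not tested. The exons of Mxd3 overlap 104 bases of Prelid1 on the opposite strand, and Prelid1, a mitochondrial lipid transfer gene, had means of 111, 37.8 and 43.9 CPM in In/B, RA-sufficient PL and RA-deficient PL.

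**Figure D3:**
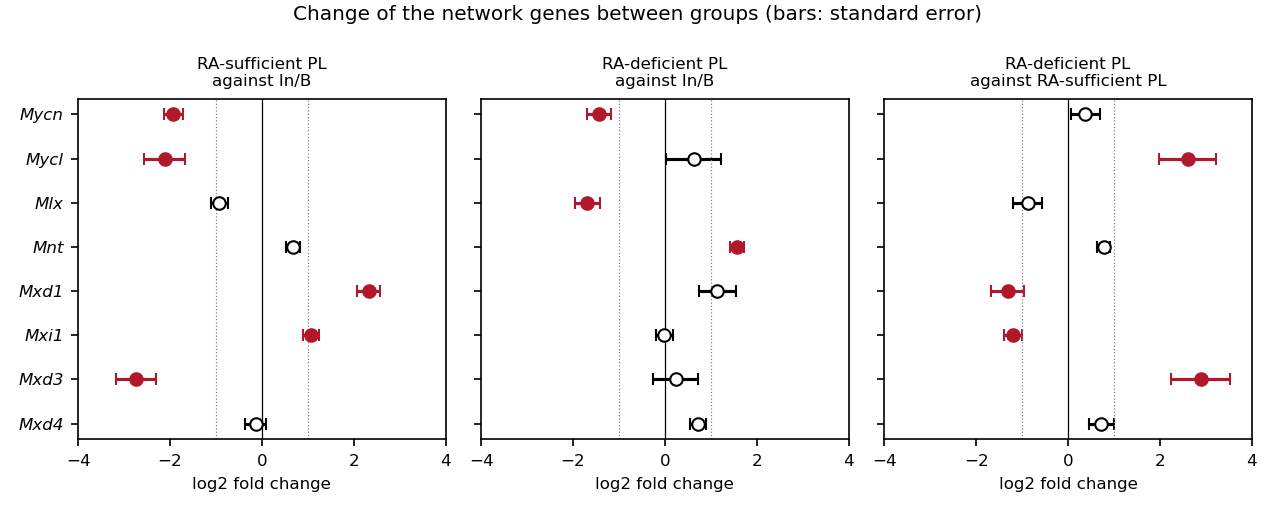
Log2 fold change (horizontal axis, first group minus second) of the members tested in all 3 comparisons and of Mycl, with bars for the standard error; filled red points were called (absolute log2 fold change above 1, dotted lines, and adjusted p below 0.05 from edgeR's quasi-likelihood test). Mycn was called lower in both PL groups against In/B, and the PL groups differed in Mxd3, Mycl, Mxd1 and Mxi1.

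Compared per kb of exon, the order of the members differed by group. In In/B spermatogonia Mycn was highest at 14.8 ± 1.87 CPM per kb, followed by Mlx at 12.8 ± 1.10, Mxi1 at 10.1 ± 1.84, Mxd4 at 8.28 ± 0.775, Mnt at 6.68 ± 0.652, Mxd1 at 2.91 ± 1.03, Mxd3 at 1.96 ± 0.267 and Myc at 0.143 ± 0.114. Neighbours from Mycn down to Mxd4 overlapped in mean ± SD, as did Mxd1 and Mxd3. In RA-sufficient PL the order began with Mxi1 at 20.2 ± 3.66 CPM per kb, Mxd1 at 14.0 ± 1.71, Mnt at 10.3 ± 0.401 and Mxd4 at 7.28 ± 2.11, and Mycn came below Mlx at 3.76 ± 0.716. Mlx at 6.48 ± 0.405 could not be separated from Mxd4, nor Myc from Mxd3. In RA-deficient PL it began with Mnt at 17.7 ± 0.824, Mxd4 at 12.1 ± 1.72, Mxi1 at 8.88 ± 0.929 and Mxd1 at 5.70 ± 2.87, and Mycn followed Mxd1 at 4.89 ± 1.35. There the neighbours from Mxi1 down through Mxd1, Mycn and Mlx to Mxd3 overlapped in mean ± SD.

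The antagonist genes (Mxd1, Mxi1, Mxd3, Mxd4 and Mnt) were added per kb and set against Myc plus Mycn. The log2 ratio was 0.67, 1.20 and 1.13 in the In/B libraries, 3.97, 3.93 and 3.39 in RA-sufficient PL and 2.81, 3.05 and 3.53 in RA-deficient PL. Every PL library was above every In/B library, and the PL groups overlapped in this ratio, which leaves out Mycl. The means were 1.00 ± 0.29, 3.76 ± 0.33 and 3.13 ± 0.37. Myc plus Mycn went from 15.0 CPM per kb in In/B to 3.86 in RA-sufficient and 5.41 in RA-deficient PL, and the antagonists from 29.9 to 52.1 and 46.5. In RA-deficient PL, Mycl had 7.55 ± 4.67 CPM per kb against 4.89 ± 1.35 for Mycn. With Mycl counted, as given below, the PL libraries did not overlap. The ratio is a description of mRNA and was given no test. The part in it of Sertoli cells and spermatogonia, whose marker sums also differed between the groups, was not tested.

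**Figure D4:**
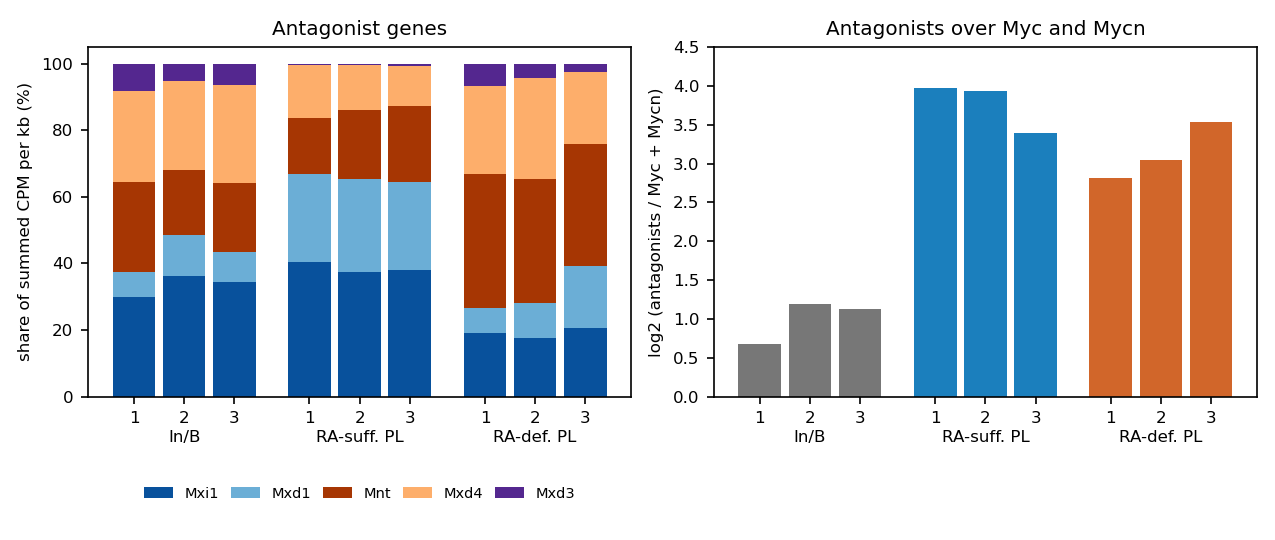
Left, share of each antagonist gene in their summed CPM per kb (%) in the 9 libraries; right, log2 of the antagonist sum over Myc plus Mycn, as bars from 0 per library. Mxi1 and Mxd1 made up 64.6 to 66.8% of the antagonist sum in RA-sufficient PL and 26.5 to 39.1% in RA-deficient PL. The ratio, which leaves out Mycl, overlapped between the PL groups. Sertoli marker sums also differed between the RA-sufficient and RA-deficient PL libraries (3020 to 3971 against 303 to 531 CPM), and their part was not tested.

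The PL groups had similar antagonist sums that differed in their makeup. Mxd1 and Mxi1 together held 43.1 ± 5.53% of the sum in In/B, 65.6 ± 1.14% in RA-sufficient PL and 31.2 ± 6.87% in RA-deficient PL. Mnt and Mxd4 together held 50.3 ± 4.04%, 33.9 ± 0.890% and 64.3 ± 5.18%. The share of Mxd3 was 6.64 ± 1.51%, 0.545 ± 0.254% and 4.44 ± 2.05%. No PL library of one group overlapped with the other in any of these shares. Each pair joins genes that were highest in the same PL group, and the shares add up to the whole. The separation therefore repeats the levels of the single genes and is no further result. Sertoli marker sums differed as well, at 3020 to 3971 CPM in RA-sufficient and 303 to 531 CPM in RA-deficient PL, and their part in the shares was not tested.

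Other genes of the network were described beside the members. Mycl, which encodes a further MYC protein, had 36.1, 16.6 and 13.6 CPM in In/B, 7.21, 3.76 and 3.93 CPM in RA-sufficient PL and 44.3, 38.2 and 9.01 CPM in RA-deficient PL. The RA-sufficient libraries were below all others, and replicate 3 was far below the other RA-deficient libraries. Mycl fell by 2.11 on the log2 scale in RA-sufficient PL against In/B (adjusted p = 0.00289, edgeR) and was higher by 2.61 in RA-deficient than in RA-sufficient PL (SE 0.62, adjusted p = 0.0246, edgeR). The latter call was lost when any RA-sufficient library, or RA-deficient replicate 1 or 2, was left out, with adjusted p up to 0.0934, and the value without RA-deficient replicate 3 was 3.07. Counting Mycl with Myc and Mycn, an alternative chosen after seeing the data, gave mean log2 ratios of 0.57, 3.36 and 1.97 in In/B, RA-sufficient PL and RA-deficient PL. In that ratio the libraries of the PL groups did not overlap. RA-deficient replicate 3, with the low Mycl, lay nearest to the RA-sufficient libraries and apart from the other RA-deficient ones, so the group mean hides a split. Mycl and the sum of the spermatogonial markers were both lowest in RA-sufficient PL. Against In/B the RA-deficient libraries had lower marker sums, with single markers in both directions, and overlapped in Mycl. The part of spermatogonia in Mycl was not tested.

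The MONDO genes and Mga were abundant. Mlxip rose from 245 ± 22.8 CPM in In/B to 478 ± 33.5 CPM in RA-deficient PL, a log2 fold change of 1.13 (adjusted p = 0.000235, edgeR) that was 0.82, and no call, with libraries scaled by their totals. In RA-sufficient PL it had 293 ± 42.8 CPM, with a log2 fold change against In/B of 0.32 (adjusted p = 0.0652, edgeR). Mlxipl, the glucose-responsive factor also called ChREBP, had 131 ± 9.44, 199 ± 19.6 and 70.3 ± 42.9 CPM, and RA-deficient replicate 3 was at 21.7 CPM against 86.2 and 103 CPM in the others. Its log2 difference between the PL groups was -1.51 (adjusted p = 0.0672, edgeR), and without that library it was -1.06 and a call (adjusted p = 0.00134, edgeR). Mga, whose large protein also pairs with MAX, had 490 ± 8.66, 578 ± 82.8 and 864 ± 63.3 CPM. Its log2 fold change in RA-deficient PL against In/B was 0.98 (adjusted p = 0.000246, edgeR), just under the size of a call.

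Of 42 genes commonly described as activated by MYC, mostly for ribosome production, metabolism and division, 17 were called lower and 4 higher in RA-sufficient PL than in In/B. Their median log2 fold change was -0.81, beside 0.04 over all genes tested. In RA-deficient PL against In/B, 8 were called lower and 1 higher, with a median of -0.45 beside 0.00. With libraries scaled by totals alone 13 were called lower there. Between the PL groups 3 were called, all lower, with a median of 0.29 beside -0.09, and 11 had an adjusted p below 0.05 in the higher direction with smaller changes. At the rule for a call, 19.3%, 11.8% and 11.05% of all genes tested were called lower, and 26.1%, 11.4% and 4.47% higher, in the 3 comparisons in this order. By the adjusted p alone, 14 of the 42 passed between the PL groups in either direction, where 23.6% of all genes did.

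**Figure D5:**
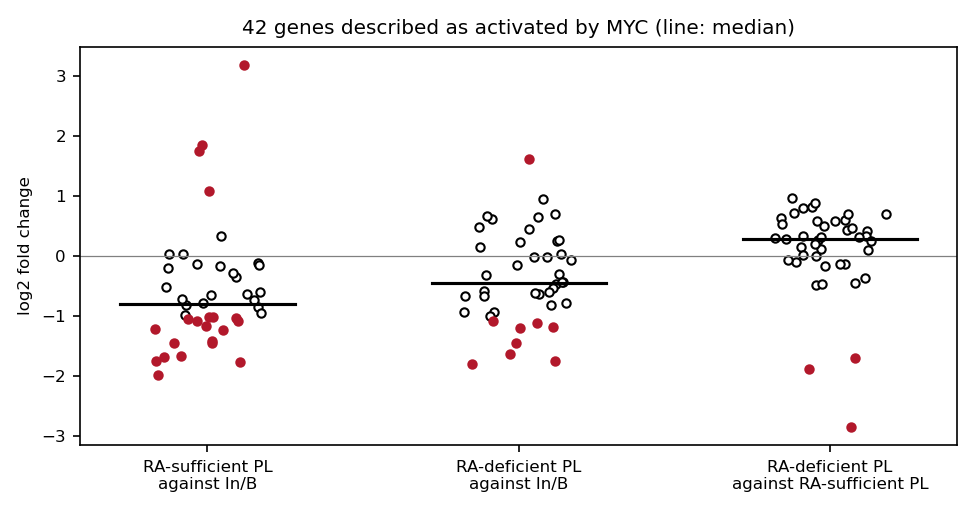
Log2 fold change (vertical axis, first group minus second) of the 42 listed MYC targets in the 3 comparisons; each point is a gene, filled red points were called, the black line is the median, and horizontal scatter carries no value. The medians are -0.81, -0.45 and 0.29.

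Among these targets, Dkc1, which encodes the pseudouridine synthase of small nucleolar particles, went from 130 ± 4.54 CPM in In/B to 31.3 ± 3.05 CPM in RA-sufficient PL, a log2 fold change of -1.99 (SE 0.13, adjusted p = 1.24e-05, edgeR). The genes called higher do not act in ribosome production, and they were Ldha, Hk2, Ccnd2 (1.76 on the log2 scale) and Odc1, for the enzyme that starts polyamine synthesis (1.09). Ldha, for lactate dehydrogenase, went from 12.6 ± 5.68 to 111 ± 75.3 CPM and Hk2, for hexokinase, from 19.2 ± 4.12 to 66.6 ± 6.31 CPM in RA-sufficient PL, with log2 fold changes of 3.19 and 1.85. In RA-deficient PL against In/B, Odc1 was the gene called higher, at 1.63, and Odc1, and Ccnd2 in the first comparison, are named here after their values were seen. There Srm (spermidine synthase) changed by -1.80, Ndufaf4 (assembly of respiratory complex I) by -1.76 and Nip7 (ribosome assembly) by -1.64 on the log2 scale. Between the PL groups, Ldha, Ccnd2 (cyclin D2) and Hk2 were lower in RA-deficient PL by log2 fold changes of -2.85, -1.88 and -1.71. Ldha was no longer called there without RA-sufficient replicate 1 or 2 or RA-deficient replicate 1 or 2, and Ldha, Hk2 and Ccnd2 were highest in the group with the highest Sertoli marker sums, whose part was not tested.

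Genes described as repressed by MYC had no common direction. Of 6 listed, 2 were called lower and 1 higher in RA-sufficient PL against In/B, 1 lower in RA-deficient PL against In/B, and 1 in each direction between the PL groups. Of all genes, 45.4%, 23.2% and 15.5% were called in these comparisons. Cdkn1b, for the cell cycle inhibitor p27, was higher in RA-sufficient PL than in In/B (26.4 ± 4.64 against 9.45 ± 2.41 CPM, log2 fold change 1.54). Ndrg1, a stress and differentiation gene, was lower there (9.42 ± 1.75 against 52.3 ± 14.4 CPM, -2.42), and it was 53.6 ± 20.7 CPM in RA-deficient PL, a difference between the PL groups of 2.51. Gadd45a, a DNA damage response gene, changed by -1.54 in RA-sufficient PL against In/B. Cdkn1a, for p21, was at 7.69 ± 0.917 CPM in RA-deficient PL, a log2 fold change of -1.86 against In/B and -1.88 against RA-sufficient PL, and the latter was no call without RA-deficient replicate 1.

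Of the 4 MLX and MONDO targets, Arrdc4, an arrestin gene, fell from 73.3 ± 5.00 CPM in In/B to 13.2 ± 2.12 CPM in RA-sufficient PL and 18.6 ± 6.46 CPM in RA-deficient PL, with log2 fold changes of -2.42 (adjusted p = 1.81e-05, edgeR) and -1.81 (adjusted p = 0.00159, edgeR). Txnip, the glucose-induced thioredoxin-binding protein, was 104 ± 12.4 CPM in RA-sufficient and 225 ± 16.7 CPM in RA-deficient PL, a log2 difference of 1.10 (adjusted p = 0.00308, edgeR) that was 0.92, and no call, with libraries scaled by totals. The counts were 1 higher and 1 lower in RA-sufficient PL against In/B, 1 (lower) in RA-deficient PL against In/B, and 1 (higher) between the PL groups. The shares of all genes called there were 45.4%, 23.2% and 15.5%.

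Coactivators of MYC were called in both directions. Of 15, 3 were called from In/B to RA-sufficient PL, all lower, 2 in each direction in RA-deficient PL against In/B, and 3 between the PL groups, all higher in RA-deficient PL, with medians of -0.42, 0.19 and 0.32 beside 0.04, 0.00 and -0.09 over all genes. The shares of all genes called were 45.4%, 23.2% and 15.5%, as above. Kat2a (a histone acetyltransferase) went from 159 ± 22.3 CPM in In/B to 60.0 ± 4.99 CPM in RA-sufficient PL, and Smarcb1 (a chromatin remodelling subunit) changed there by -1.10 on the log2 scale. In RA-deficient PL, Ep300 and Ep400 (a histone acetyltransferase and the ATPase of the TIP60 complex) were higher than in In/B by log2 fold changes of 1.67 and 1.36, while Actl6a, for an actin-related subunit of such complexes, changed by -1.24. Crebbp (the paralog of Ep300) and Ep300 were higher in RA-deficient than in RA-sufficient PL by 1.20 and 1.13, and Ep300 was no call with libraries scaled by totals (0.95) or without RA-sufficient replicate 1.

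Of 19 genes of the SIN3 corepressor, through which the antagonists act, 2 were called higher and 1 lower in RA-sufficient PL against In/B. In RA-deficient PL against In/B 3 were called higher and 1 lower, and between the PL groups 1 was called, which was lower. Of all genes, 45.4%, 23.2% and 15.5% were called in these comparisons. The medians of the 19 genes were -0.05, 0.21 and -0.02, beside 0.04, 0.00 and -0.09 over all genes. Hdac2, a histone deacetylase gene, went from 301 ± 22.2 CPM in In/B to 84.7 ± 2.79 CPM in RA-sufficient PL and 106 ± 19.2 CPM in RA-deficient PL, with log2 fold changes of -1.77 and -1.34. Arid4a and Ing2, for subunits that recognise chromatin, were higher in both PL groups than in In/B, with log2 fold changes of 1.65 and 1.04 in RA-sufficient PL and 1.21 and 1.20 in RA-deficient PL. Both RA-deficient values were below 1 with libraries scaled by totals. Sin3b, a scaffold of the complex, was 371 ± 55.3 CPM in RA-sufficient and 161 ± 15.1 CPM in RA-deficient PL, a log2 difference of -1.21 (SE 0.16, adjusted p = 0.00308, edgeR).

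Of 10 genes acting on the turnover of MYC proteins, 4 were called from In/B to RA-sufficient PL and 2 from In/B to RA-deficient PL, all lower, and 2 were called higher and 1 lower between the PL groups. Of all genes, 45.4%, 23.2% and 15.5% were called in these comparisons, and 19.3%, 11.8% and 11.05% were called lower. The medians of the 10 genes were -0.66, -0.19 and 0.19, beside 0.04, 0.00 and -0.09 over all genes. Skp2, for a ubiquitin ligase subunit that recognises MYC, fell from 48.0 ± 2.40 CPM in In/B to 16.2 ± 3.19 CPM in RA-sufficient and 15.3 ± 4.35 CPM in RA-deficient PL. Aurka, the kinase known to stabilise MYCN, was 98.0 ± 19.4 CPM in In/B and 22.9 ± 4.77 CPM in RA-deficient PL (log2 fold change -1.93), and it was lower there than in RA-sufficient PL by a log2 fold change of -1.34. Usp36, a nucleolar deubiquitinase, and Stub1, a ubiquitin ligase, changed by -1.43 and -1.05 in RA-sufficient PL against In/B. Huwe1, a further ligase of MYC proteins, and Usp36 were higher in RA-deficient than in RA-sufficient PL by 1.07 and 1.06, and neither passed with libraries scaled by totals.

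For each member called in any comparison, the genes with the most similar pattern over the 9 libraries were found by Pearson's r of log2 CPM among 9695 or 9696 genes whose mean reached 10 CPM. For Mycn these were Psmb1 (r = 0.993) and Pfdn6 (r = 0.992), for Mlx Zfp933 (0.995) and Cttn (0.990), and for Mnt Mad1l1 (0.989) and Relt (0.986). For Mxd1 they were Ccbe1 (0.995) and Dnm3 (0.994), for Mxi1 Elovl2 (0.993) and Ctnnd1 (0.992), and for Mxd3 Zbtb2 (0.989) and Ldb1 (0.987). The points share their libraries and fall into 3 groups, so these values describe likeness in these libraries alone.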

How the data were processed

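The matrix the authors deposited holds raw read counts of 24505 genes in 9 libraries, not normalized. Per the labels and the submitters' processing notes, reads were trimmed with cutadapt 1.9, aligned to mm9 with STAR 2.5.2b and counted with featureCounts. The annotation and the use of strand in counting are not given in the sources used here, so overlapping genes can share counts. All 9 columns were matched to samples by name, and 0 were left unused.

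The members and all gene lists were chosen with earlier results of these data known. Pairs of groups, 3 libraries against 3, were tested on these counts with edgeR 4.0.16 (R 4.3.3; TMM scaling, filterByExpr, quasi-likelihood test, Benjamini-Hochberg adjustment over all genes tested), and genes were called at an absolute log2 fold change above 1 with an adjusted p below 0.05. The script was tested on simulated data. CPM values were scaled with TMM over all 9 libraries, and levels per kb use the merged exon length in GENCODE M1, which shares the build of mm9. Of the gene names, 20531 matched this annotation directly, 1661 through an older symbol and 2313 not at all. All members are named, as are Mycl, Mlxip, Mlxipl and Mga, and of each list of related genes the 3 called genes with the largest change among those with a mean of at least 10 CPM in the comparison, and for each called member the 2 genes with the highest correlation (log2 of CPM plus 0.1). Marker lists for differentiating and undifferentiated germ cells and for somatic cells were described by their summed CPM. Of the genes this rule selects, 1 is not reported here, though list counts include it. Stem and progenitor markers summed to 259 to 464, 166 to 263 and 312 to 426 CPM, and 3 general germ cell markers to 1994 to 2224, 1627 to 1913 and 2970 to 3335 CPM, in In/B, RA-sufficient PL and RA-deficient PL.

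Replicates were the libraries the labels number, and whether each came from its own litter is not stated, so p-values measure the spread between these libraries. Total counts ran from 12612959 to 27042274, and the floor of 3 counts covers counting error only. Alternatives were RLE factors or library totals alone, no filter or a minimum mean of 50 counts, a joint fit of the 9 libraries, a replicate block, testing against 2-fold, DESeq2 1.42.0, the adjusted p alone, and each library left out in turn. Promoter windows are those of RefSeq. Python 3.11.15 and matplotlib 3.10.9 were used for figures.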

Additional observations from a re-analysis of the deposited data

Results flagged for a closer look

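For 4 genes (Mxd1, Mxi1, Mxd3 and Mycl) the PL groups differed at the thresholds of a call, where 15.5% of 15352 genes did. In these genes the change from In/B to PL differed between RA-sufficient and RA-deficient cells, by the test between the PL groups. This was the quasi-likelihood test of edgeR, adjusted by Benjamini-Hochberg. Both changes share the In/B libraries, so the test between the PL groups addresses their difference. Each pair of groups was fitted on its own, so the tested difference is near, and not equal to, the gap between the changes. The difference was -1.31 on the log2 scale for Mxd1 (adjusted p = 0.0354), beside changes of 2.33 with RA and 1.14 without it. For Mxi1 it was -1.20 (adjusted p = 0.00598), beside 1.06 and -0.01. For Mxd3 it was 2.89 (adjusted p = 0.0201), beside -2.74 and 0.23, and for Mycl it was 2.61 (adjusted p = 0.0246), beside -2.11 and 0.63. With single libraries left out, the calls held in 6 of 6 fits for Mxi1, 2 for Mxd3 and 1 for Mxd1. The call of Mycl held only without RA-deficient replicate 3, and the test against 2-fold called 0 members. Mxd1, Mxi1 and the Sertoli marker sums were highest in RA-sufficient PL, and Mxd3, Mycl and the spermatogonial marker sums were lowest there.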

How the results depend on the processing

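Of 342 alternative values for single members, 306 kept their direction and their side of the thresholds, 11 newly passed, 18 no longer passed and 7 turned sign. Those 7 were near 0: Mxd4 in RA-sufficient PL against In/B (-0.402 to 0.0176 with single libraries left out, above 0 without RA-sufficient replicate 3), Mxd3 in RA-deficient PL against In/B (-0.0810 with library totals, and -0.181 to 0.503 with single libraries left out, below 0 without RA-deficient replicate 1) and Mxi1 in the same comparison (0.0151 with a mean of at least 50 counts, and -0.137 to 0.0872 with single libraries left out, above 0 without In/B replicate 2 or 3 or RA-deficient replicate 2). The test against a fold change of 2 called 1 member in RA-deficient PL against In/B, and 0 between the PL groups (edgeR's glmTreat; 1 at an unadjusted p below 0.05), where DESeq2 without that test called 3. With 1 library left out the number called was 3 to 4, 3 to 4 and 1 to 3. The antagonist log2 ratio without division by length was 1.48, 4.34 and 3.61, with Mycl counted it was 0.57, 3.36 and 1.97, and without single libraries it ran from 0.90 to 1.16, 3.66 to 3.95 and 2.93 to 3.29. The test against 2-fold called 9 MYC targets lower in RA-sufficient PL, and 3 lower with 0 higher in RA-deficient PL against In/B. The adjusted p alone gave 28 lower, 7 higher and 20 lower, and 11 higher between the PL groups. By that rule 65.0%, 36.7% and 23.6% of all genes passed in either direction. Scaling by totals gave 13 lower in RA-deficient PL. Leaving out libraries gave 1 to 2 higher in RA-deficient PL against In/B and 0 to 2 higher between the PL groups. All genes called against In/B in RA-deficient PL numbered 3446, or 1207 against 2-fold and 5459 by adjusted p alone. Between the PL groups they numbered 2383, or 741, 3629, and 1190 to 4484 without single libraries, the highest being without RA-deficient replicate 3. Scaling by totals moved the median of all genes to -0.31 and -0.27 in the comparisons of RA-deficient PL. The causes were not tested.

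With the replicate number as a block, 4, 4 and 2 members were called, and 6373, 3208 and 1765 of all genes. The block added Mxd1 in RA-deficient PL against In/B (1.08) and left out Mxd3 between the PL groups (adjusted p = 0.0780, edgeR). Deviations of same-numbered libraries correlated at -0.252 to 0.117, and those of different-numbered libraries at -0.181 to 0.199. No pairing by number was seen. Deviations from a mean of 3 libraries are bound to each other, so these values cannot exclude one. Depth limits Myc and, in RA-sufficient PL, Mxd3.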
